A study of Mus musculus with 7 samples.

Results

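The skeletal myosin chains were described as 10 genes, namely the adult fast heavy chains Myh4, Myh1 and Myh2, the slow heavy chain Myh7, the developmental heavy chains Myh3 and Myh8, and the light chains Myl1, Myl3, Mylpf and Myl2. They were chosen by name from measured values of this same comparison, so their levels and differences are given as a description and nothing is tested with them. Of the 10 genes, 9 had a row among the 23930 amplicons of the panel, and Myh7 was not analysed here. RNA came from the contralateral mammary gland, opposite the tumor, of 7 parous mice of mixed background that the labels call age-matched, from 3 consecutive paraffin sections per mouse. The HMMR Tg/Tg mice (HMMR Tg/Tg Brca1f/f Trp53+/-, mice 7, 8, 9 and 11) carried 2 copies of a human HMMR coding sequence placed in the Rosa26 locus behind a removable stop. The control mice (Brca1f/f Trp53+/-, mice 1, 2 and 3) lacked that transgene. Both groups shared the floxed Brca1 alleles, the heterozygous loss of Trp53 and the Blg-Cre transgene, driven by a milk protein promoter that is used by lactating mammary epithelium. Values are reads per 1000000 panel reads (RPM) from 1 amplicon per gene, with no correction for length, so reads of different genes can be set side by side only on the assumption that their amplicons work alike, which was not tested.

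A skeletal myosin molecule joins a pair of heavy chains, which carry the motor and the rod of the thick filament, with essential and regulatory light chains that stiffen and tune the lever arm. Fibers are classed by their heavy chain: type IIB uses Myh4, type IIX uses Myh1, type IIA uses Myh2 and slow type I uses Myh7, while Myh3 and Myh8 mark embryonic, newborn and regenerating fibers. Fast fibers use the light chains Myl1 and Mylpf, and slow fibers, like the heart ventricle, use Myl3 and Myl2.

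The fast and developmental heavy chain genes lie head to tail on chromosome 11, in the order Myh3, Myh2, Myh1, Myh4 and Myh8, all on the plus strand. The slow Myh7 lies on the minus strand of chromosome 14. In GRCm38.p6, Myh2 spans chr11:67171027-67197517, Myh1 spans chr11:67200102-67224577 and Myh4 spans chr11:67237812-67260447. Myl2 lies at chr5:122092724-122113473. The 120 bases before the start of the 3 adult fast heavy chains, and of the slow light chain Myl2 for contrast, are shown because the results turn on which of these genes was read. They are RefSeq sequences on the plus strand, from chr11:67237692-67237811 for Myh4, chr11:67199982-67200101 for Myh1, chr11:67170907-67171026 for Myh2 and chr5:122092604-122092723 for Myl2. Capitals mark E-boxes (CANNTG, either strand), CArG boxes, MEF2 sites and the letters TATAAA on the gene's strand.
Myh4: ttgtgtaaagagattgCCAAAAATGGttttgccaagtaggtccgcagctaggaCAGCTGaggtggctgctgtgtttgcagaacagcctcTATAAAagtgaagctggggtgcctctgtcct
Myh1: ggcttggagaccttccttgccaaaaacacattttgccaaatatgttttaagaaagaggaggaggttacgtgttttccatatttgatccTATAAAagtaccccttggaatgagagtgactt
Myh2: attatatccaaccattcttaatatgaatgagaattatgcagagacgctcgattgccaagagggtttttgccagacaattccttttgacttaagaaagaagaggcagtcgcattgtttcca
Myl2: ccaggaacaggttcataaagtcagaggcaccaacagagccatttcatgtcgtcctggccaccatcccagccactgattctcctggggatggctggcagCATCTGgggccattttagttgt
Of these 4 windows, that of Myh4 alone held a CArG box, which began 104 bases before the start, beside an E-box at 67 bases and TATAAA at 31 bases. The window of Myh1 held TATAAA at 32 bases, that of Myl2 held an E-box at 22 bases, and that of Myh2 held none of the 4 motifs. No marked motifs overlapped. Among 32851 RefSeq promoter windows of this length, 40.2% held an E-box, 0.749% a CArG box, 1.33% a MEF2 site and 4.19% TATAAA. Over the 12 annotated starts of the 10 genes, 7 windows held an E-box, 2 a CArG box, 1 a MEF2 site and 3 TATAAA.

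The libraries held 5532358 to 9345915 reads, so 3 reads corresponded to 0.321 to 0.542 RPM. The PCR reads carried no molecular identifiers, and intervals and floors cover counting error only. The tissue label was checked with luminal epithelium markers (10 of 10 with a row), which summed to 4679 to 31044 RPM in HMMR Tg/Tg mice and 4014 to 54295 RPM in control mice. The highest sums were mostly the milk gene Csn2, at 25205 RPM in mouse 11 and 49940 RPM in mouse 2. The keratin Krt18 ran only from 291 to 437 RPM over all mice, so the sums do not measure how much epithelium a section held. Other markers of the list were less even. Epcam was at 1647 to 2430 RPM in HMMR Tg/Tg mice and 1108 to 1382 RPM in control mice. Prlr went the other way, at 203 to 267 RPM and 334 to 622 RPM. Of the 10 markers, 3 had a negative log2 fold change. Whether the sections of the groups held equal epithelium was not tested. The sarcomere and muscle identity list (25 of 26 with a row) summed to 46.0 to 96.5 RPM in HMMR Tg/Tg mice and 963 to 5711 RPM in control mice. Its defining genes Ckm and Acta1 were at 0 in mouse 11. This list moved with the fast myosin chains below, and its part in their difference was not tested. In bulk sections, fewer muscle fibers and less RNA per fiber cannot be told apart.

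The 9 measured chains together took 0.00398%, 0.00706%, 0.00584% and 0.00239% of reads in HMMR Tg/Tg mice 7, 8, 9 and 11. They took 0.203%, 0.706% and 0.0979% in control mice 1, 2 and 3. Every HMMR Tg/Tg mouse was below every control mouse, and mouse 2 was the highest of all 7, with 63944 reads of these genes. Mylpf ranked 28 among all amplicons in mouse 2. The reads in HMMR Tg/Tg mice were few, 143 to 660 per mouse, which limits what can be said of isoforms there.

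**Figure D1:**
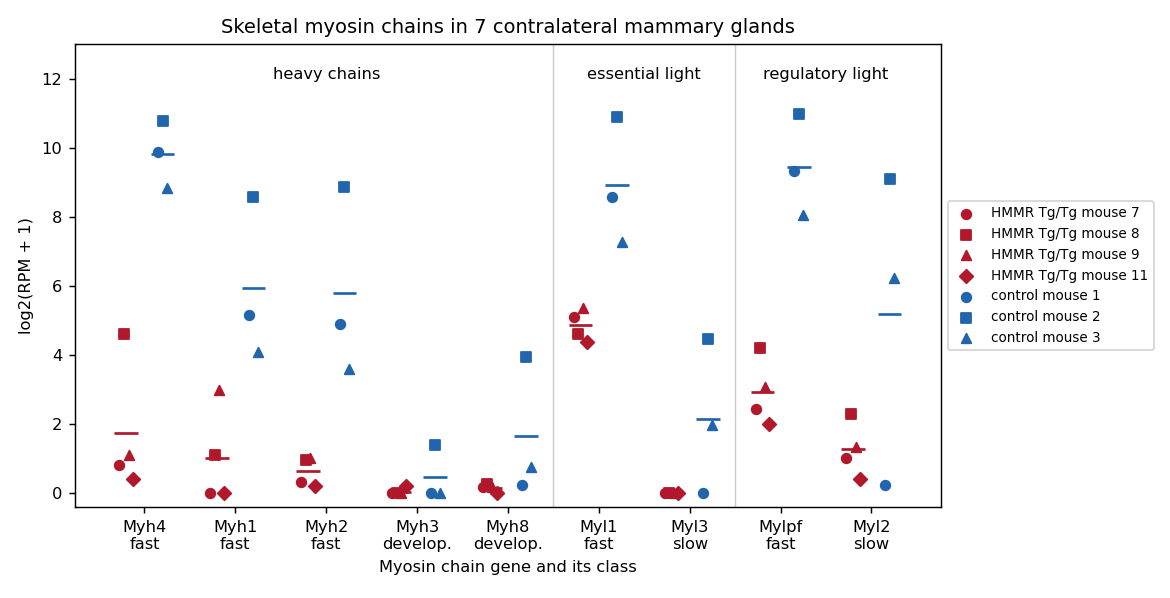
Level of each measured myosin chain, as log2(RPM + 1), in HMMR Tg/Tg mice (red, left) and control mice (blue, right), with 1 point per mouse and a bar at the group mean. The fast chains Myh4, Myh1, Myh2, Myl1 and Mylpf do not overlap between groups, whereas for the slow chains mouse 1 lies below all 4 HMMR Tg/Tg mice (Myl2) or at 0 like them (Myl3).

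Myh4, the motor of type IIB fibers and the fastest of the adult chains, was the most read heavy chain in all 3 control mice. It was read at 0.768, 23.2, 1.15 and 0.335 RPM in HMMR Tg/Tg mice 7, 8, 9 and 11. In control mice 1, 2 and 3 it was read at 937, 1732 and 458 RPM. In order of level the mice were 2, 1, 3, 8, 9, 7 and 11, and mouse 8 stood well above the other HMMR Tg/Tg mice, with 217 Myh4 reads against 2 to 9. The means were 6.37 ± 11.2 RPM (SD, n = 4) in HMMR Tg/Tg mice and 1042 ± 644 RPM (SD, n = 3) in control mice. With limma, it had a log2 fold change of -8.09 ± 0.87 (standard error) on the log2(RPM + 1) scale and an adjusted p of 0.00296.

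Myh1, the motor of type IIX fibers, was read at 0, 1.18, 7.03 and 0 RPM in HMMR Tg/Tg mice 7, 8, 9 and 11. Control mice 1, 2 and 3 had 35.1, 379 and 16.02 RPM. Mouse 2 was far above the other control mice and mouse 9 far above the other HMMR Tg/Tg mice, and the groups did not overlap. With limma, it had a log2 fold change of -4.91 ± 1.01 (standard error) and an adjusted p of 0.0863, above 0.05. The adjusted p was 0.0439 without mouse 3 and 0.0440 without mouse 9. It ran from 0.111 to 0.288 when any other mouse was left out.

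Myh2, the motor of type IIA fibers, was read at 0.256, 0.963, 1.02 and 0.167 RPM in HMMR Tg/Tg mice 7, 8, 9 and 11, that is, from 1 to 9 reads. Control mice 1, 2 and 3 had 28.9, 464 and 11.1 RPM. Again mouse 2 was the highest, 16-fold above mouse 1, and the groups did not overlap. With limma, it had a log2 fold change of -5.15 ± 0.97 (standard error) and an adjusted p of 0.0579. The adjusted p was 0.0134 without mouse 2 and 0.0138 without mouse 3. It ran from 0.0839 to 0.192 when any other mouse was left out.

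The developmental heavy chains had few reads outside mouse 2 (at most 6 reads of either gene in a mouse), and neither passed the filter of at least 1 RPM in at least 3 mice. Myh8, the perinatal chain, was read at 0.128, 0.214, 0.128 and 0 RPM in HMMR Tg/Tg mice 7, 8, 9 and 11, and at 0.181, 14.5 and 0.702 RPM in control mice 1, 2 and 3. Myh3, the embryonic chain, had 1 read in mouse 11 (0.167 RPM) and none in the other HMMR Tg/Tg mice, while mouse 2 had 1.66 RPM and the other control mice none. The groups overlapped for both genes, and mouse 2 was the only mouse above 1 RPM for either.

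Myl1, the fast essential light chain, had the most reads of the chains in every HMMR Tg/Tg mouse. It was read at 33.2, 23.4, 40.2 and 19.9 RPM in HMMR Tg/Tg mice 7, 8, 9 and 11, and at 381, 1880 and 154 RPM in control mice 1, 2 and 3. The groups did not overlap, yet the HMMR Tg/Tg mice were within a narrow band, unlike Myh4. With limma, it had a log2 fold change of -4.05 ± 0.65 (standard error) and an adjusted p of 0.0247. The adjusted p was above 0.05 without mouse 1 (0.131), mouse 7 (0.0811), mouse 8 (0.0795) or mouse 11 (0.108).

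Myl3, the slow essential light chain, had no read in any HMMR Tg/Tg mouse and none in mouse 1. It was read at 21.0 RPM in mouse 2 and 2.92 RPM in mouse 3. It did not pass the filter on low values, and the groups overlapped because mouse 1 was at 0.

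Mylpf, the fast regulatory light chain, was read at 4.48, 17.7, 7.42 and 3.01 RPM in HMMR Tg/Tg mice 7, 8, 9 and 11. Control mice 1, 2 and 3 had 647, 2024 and 263 RPM. The groups did not overlap, and mouse 2 was the highest and mouse 11 the lowest. With limma, it had a log2 fold change of -6.52 ± 0.65 (standard error) and an adjusted p of 0.00265.

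Myl2, the slow regulatory light chain, was the chain on which the control mice parted. It was read at 1.02, 3.96, 1.53 and 0.335 RPM in HMMR Tg/Tg mice 7, 8, 9 and 11. Control mice 1, 2 and 3 had 0.181, 543 and 73.8 RPM. Mouse 1, with 1 Myl2 read, was below all 4 HMMR Tg/Tg mice, so the groups overlapped. Per read of the library, mouse 2 had 3004 times the Myl2 reads of mouse 1, with an exact 95% counting interval of 539 to 118663 that is wide because of the single read. With limma, it had a log2 fold change of -3.91 ± 1.56 (standard error) and an adjusted p of 0.438. Without mouse 1 the log2 fold change was -6.38 with an adjusted p of 0.0233, and without mouse 2 it was -1.96 with an adjusted p of 0.602.

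Of the 6 genes that passed the filter (Myh4, Myh1, Myh2, Myl1, Mylpf and Myl2), 3 were called lower (Myh4, Mylpf and Myl1) and 0 higher by limma, with the adjusted p below 0.05, and 0 were higher at an unadjusted p below 0.05 or by edgeR or DESeq2. Over all 13080 genes tested, 0.367% were called lower and 0.0382% higher. In 5 of the 6, all but Myl2, every HMMR Tg/Tg mouse was below every control mouse, as was the case for 3.34% of all genes tested. Since this contrast chose the genes, nothing is read from these counts.

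Which fiber type the control sections held was read from the share of each isoform within a mouse. Such shares rest on the same assumption, and Myh7 does not enter them. Slow shares of different pairs were unlike within a mouse, as given below. In mice 2 and 3, Myl2 took 21.2% and 21.9% of its pair, but Myl3 took 1.10% and 1.87%. In mouse 1, Mybpc1 took 98.6% and Myl2 0.0279%. A share is therefore compared only between mice for the same pair, and is not a measure of how many fibers of a type were present. Among the reads of Myh4, Myh1 and Myh2, Myh4 took 93.6% in mouse 1 (95% exact Clopper-Pearson interval 92.9% to 94.2%), 67.3% in mouse 2 (66.7% to 67.9%) and 94.4% in mouse 3 (93.7% to 95.1%). Type IIB was thus the most read adult fast heavy chain isoform in every control mouse, and mouse 2 had in addition 14.7% Myh1 and 18.01% Myh2. In mice 1 and 3, Myh1 took 3.5% and 3.3% and Myh2 took 2.89% and 2.29%.

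In HMMR Tg/Tg mice the same shares rest on few reads. Myh4 took 75.0% in mouse 7 (6 of 8 reads), 91.6% in mouse 8 (217 of 237), 12.5% in mouse 9 (9 of 72) and 66.7% in mouse 11 (2 of 3). Mouse 9 stood apart, with 76.4% of these reads from Myh1 (55 of 72, exact interval 64.9% to 85.6%), while mouse 8 was close to mice 1 and 3. Epidermis markers (8 of 10 with a row) summed to 302 RPM in mouse 9 and 2.56 to 10.4 RPM in the other HMMR Tg/Tg mice. In control mice they summed to 4.70, 1.21 and 132 RPM in mice 1, 2 and 3, and their part in the Myh1 share was not tested. Krt79 was the largest part of the sum in mouse 9 (192 RPM) and in mouse 3 (93.4 RPM). Flg, Krtdap, Lor and Calm4 were also highest in these mice, with Flg at 0 in mice 7, 8, 11, 1 and 2. Krt1 and Krt10 were at 15.9 and 0.639 RPM in mouse 9 but at 0.117 and 0 RPM in mouse 3. Krt2 was at 0 in mice 9 and 3 and at 0.362 and 0.331 RPM in mice 1 and 2.

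**Figure D2:**
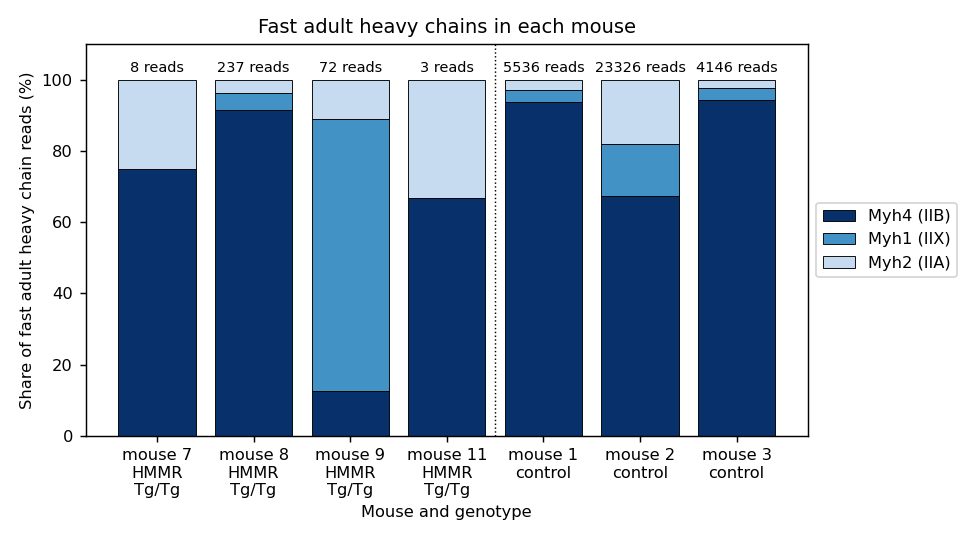
Share of each adult fast heavy chain among the reads of Myh4, Myh1 and Myh2, in percent, for HMMR Tg/Tg mice (left) and control mice (right), with the number of reads above each bar. Myh4 takes 67.3% to 94.4% in control mice, and Myh1 takes 76.4% in mouse 9, where 72 reads were counted.

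Developmental chains made up a small part of heavy chain reads in control mice. Myh3 and Myh8 together took 0.0181% of the 5 heavy chains in mouse 1, 0.622% in mouse 2 and 0.145% in mouse 3. The value in mouse 2 came from 146 of 23472 reads, and its exact interval (0.525% to 0.731%) lay above those of mice 1 and 3 (at most 0.101% and 0.314%). In HMMR Tg/Tg mice 1 or 2 reads of these genes were counted per mouse, of 4 to 239 heavy chain reads.

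Identical stretches limit how far heavy chains can be told apart by short reads. In NCBIM37 transcripts, the coding sequences of Myh1 and Myh2 are 91.1% identical, those of Myh1 and Myh4 90.2%, and those of Myh4 and Myh8 87.9%. Their longest shared runs are 268, 161 and 164 bases. The light chains are further apart, with 71.6% identity between Myl1 and Myl3, 65.9% between Mylpf and Myl2, and a longest shared run of 20 bases in each pair. Where the amplicons lie was not analysed here, so shared reads among heavy chains cannot be told apart from true low levels such as the 1 Myh8 read in mouse 1.

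The slow light chain share separated mouse 1 from mice 2 and 3. Of the reads of Mylpf and Myl2, Myl2 took 18.6%, 18.3%, 17.1% and 10% in HMMR Tg/Tg mice 7, 8, 9 and 11. It took 0.0279% in mouse 1 (1 of 3578 reads, exact interval 0.000708% to 0.156%), 21.2% in mouse 2 and 21.9% in mouse 3. Mice 2 and 3 thus had overlapping intervals (20.6% to 21.7% and 20.4% to 23.4%), and mouse 1 stood apart from every other mouse, HMMR Tg/Tg mice included. The intervals of the HMMR Tg/Tg mice were wide, for example 1.23% to 31.7% in mouse 11 with 2 of 20 reads.

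Of the essential light chain reads, Myl3 took 1.10% in mouse 2 and 1.87% in mouse 3. It was at 0 of 2107 reads in mouse 1, which allows a share of up to 0.142%. In the HMMR Tg/Tg mice it was at 0 of 119 to 314 reads, which allows shares of up to 0.955% to 2.52%, so a share like that of mouse 2 was not detectable at this depth in mouse 7, 8 or 11.

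The troponins, which switch the thin filament on and off with calcium, gave a further pair of slow and fast shares. They and the Mybpc genes were chosen for this after their values were seen. Of the reads of Tnni1 and Tnni2, the slow and fast troponin I genes, Tnni1 took 0 of 1445 in mouse 1 (which allows up to 0.208%), 23.0% in mouse 2 and 7.06% in mouse 3. Of the reads of Tnnt1 and Tnnt3, slow and fast troponin T, Tnnt1 took 0.865% in mouse 1, 14.9% in mouse 2 and 8.78% in mouse 3. For both pairs mouse 1 was lowest and mouse 2 highest, and no interval overlapped another. In HMMR Tg/Tg mice these pairs had 4 to 62 and 3 to 134 reads, with Tnni1 at 29.4%, 6.45%, 0% and 0% in mice 7, 8, 9 and 11 and Tnnt1 at 100%, 24.6%, 3.57% and 66.7%. The zeros of Tnni1 in mice 9 and 11, at 46 and 4 reads, allow shares of up to 6.52% and 75.0%.

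The myosin-binding protein C pair did not separate the control mice. Of the reads of Mybpc1 and Mybpc2, the slow and fast genes, Mybpc1 took 100% in HMMR Tg/Tg mice 7, 8 and 9 (5, 16 and 13 reads), and mouse 11 had no read of either. It took 98.6% in mouse 1 (137 of 139 reads, exact interval 94.9% to 99.8%), 98.8% in mouse 2 (98.3% to 99.1%) and 98.2% in mouse 3 (96.1% to 99.3%). The intervals of the 3 control mice overlapped. Mybpc2, however, was read at only 0.362, 3.75 and 0.702 RPM in mice 1, 2 and 3, and at 0 in every HMMR Tg/Tg mouse. This share therefore lay near 100% wherever the pair was read, and it cannot tell the fiber types of these mice apart. The low slow share of mouse 1 was seen in regulatory light chain and troponin reads.

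**Figure D3:**
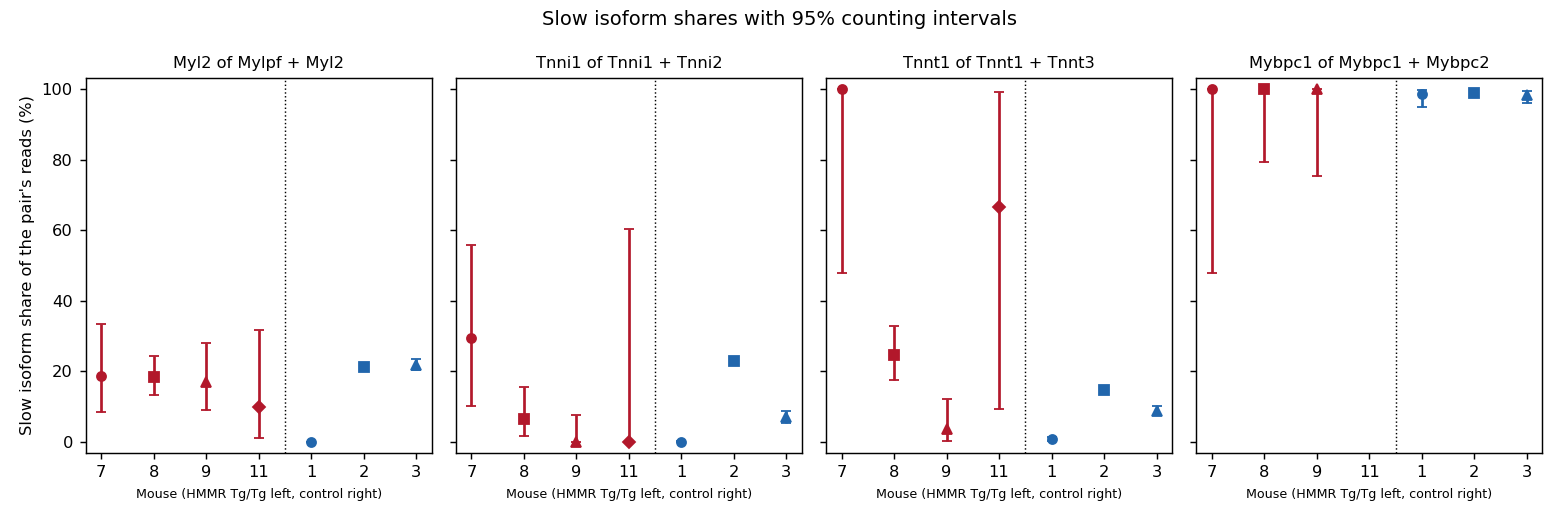
Share of the slow isoform among the reads of a slow and fast pair, in percent, for HMMR Tg/Tg mice (red, left) and control mice (blue, right), with 95% exact intervals for counting error. Mouse 1 is at or below 0.865% in the regulatory light chain and troponin pairs, where mice 2 and 3 lie between 7.06% and 23.0%. The essential light chain pair is not shown, and there Myl3 took 1.10% in mouse 2 and 1.87% in mouse 3. The Mybpc1 share is 98.2% to 98.8% in all 3 control mice, where Mybpc2 was hardly read (at most 3.75 RPM). Mouse 11 had no read of the Mybpc pair, and intervals in HMMR Tg/Tg mice are wide because reads are few.

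Set side by side, the control mice had different fiber type readings on a shared type IIB base. Mouse 1 had Myh4 with 1 read of Myl2 and none of Myl3 or Tnni1. The Mybpc pair could not separate the mice, since Mybpc2 was hardly read in any of them. Mouse 3 had a Myh4 share like that of mouse 1 but a Myl2 share like that of mouse 2. Mouse 2 had the slow light chains together with the highest shares of Myh1, Myh2 and developmental chains among the control mice.

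Cardiac muscle, which also uses Myl2 and Myl3, was checked with 8 markers. Myh6, a heavy chain of the heart, and Nppa were at 0 in every mouse. The list summed to 17.3 to 20.1 RPM in HMMR Tg/Tg mice and 18.8 to 29.1 RPM in control mice. Tnni3, the cardiac troponin I, was the largest part of this sum in every mouse, at 8.82 to 27.7 RPM. Tnni3 was highest in mouse 1, the control mouse with 1 Myl2 read. Ryr2 was also highest of the control mice in mouse 1, at 1.45, 0.331 and 0.819 RPM in mice 1, 2 and 3. Tnnt2 went the other way, at 0, 2.21 and 1.64 RPM. Myl7 and Myl4 were read only in mouse 3, at 0.468 and 0.234 RPM. Nppb was read in mouse 3 alone of the control mice, at 0.351 RPM.

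Light and heavy chains also differed in proportion within a mouse. Myl1 reads over Mylpf reads were 7.40, 1.33, 5.41 and 6.61 in HMMR Tg/Tg mice 7, 8, 9 and 11, and 0.589, 0.929 and 0.584 in control mice 1, 2 and 3. Myh4 over Mylpf was 0.171, 1.32, 0.155 and 0.111 in HMMR Tg/Tg mice and 1.45, 0.856 and 1.74 in control mice. Mouse 8, the HMMR Tg/Tg mouse with the most reads of these genes, lay within the control range for the Myh4 ratio and nearest to it for the Myl1 ratio, whereas mice 7, 9 and 11 were far outside both.

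Across the 7 mice, log2(RPM + 1) values of the 5 fast chains were correlated with each other at Pearson r of 0.86 to 0.99, and with Myl2 at 0.66 to 0.76. These are descriptions over 7 mice that share the difference between groups. The genes outside the chains most like Myh4 were Eef1a2 (r = 0.99), an elongation factor of muscle and neurons, Neb (0.99), the nebulin of the thin filament, Ckm (0.98), the muscle creatine kinase, Inafm2 (0.98) and Actn3 (0.98), the fast fiber alpha-actinin. Those most like Myl2, used in place of Myh7 after the values were seen, were 2510009E07Rik, Tmem258, Mrps31, Tnnt1 and Ctdnep1 (r = 0.96 to 0.97).

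Genes that work with the chains were counted from lists of fiber type partners, in the same contrast, so the counts are again only descriptions. Of 13 tested fast fiber partners, 8 were called lower and 0 higher, with a median log2 fold change of -3.52, beside 0.11 over all genes tested. Over all genes tested, limma called 0.367% lower and 0.0382% higher. Some lists share tested genes, so their counts are not separate. Actn3 is a fast and a sarcomere gene, and Mybpc1 a slow and a sarcomere gene. Mylk2 (fast) and Myl6b (slow) are also among the other striated myosin genes. None of the muscle lists described here had a gene that was higher at an unadjusted p under 0.05 with limma, edgeR or DESeq2. Atp2a1, the calcium pump of fast fibers, averaged 3.80 ± 4.41 RPM (SD, n = 4) in HMMR Tg/Tg mice and 491 ± 399 RPM (SD, n = 3) in control mice (log2 fold change -7.03, adjusted p = 0.00429 from limma). Tnnt3 was read at 4.47 ± 5.31 RPM (SD, n = 4) in HMMR Tg/Tg mice and 419 ± 342 RPM (SD, n = 3) in control mice, with a log2 fold change of -6.73. Tpm1, a tropomyosin that other tissues also express, and Gpd1, a glycerol phosphate enzyme abundant in fat, were not called (log2 fold changes -0.74 and 0.68).

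Of 12 tested slow fiber partners, 3 were called lower and 0 higher, beside 0.367% and 0.0382% of all genes tested. Their median was -3.24 (-1.83 without mouse 2). The called genes were Mybpc1, the slow myosin-binding protein C, at 1.00 ± 0.832 RPM (SD, n = 4) in HMMR Tg/Tg mice and 120 ± 154 RPM (SD, n = 3) in control mice, Cox6a2, a muscle subunit of cytochrome oxidase, and Ckmt2, the mitochondrial creatine kinase of muscle. Mybpc1 was not called without mouse 7 (adjusted p = 0.0543) or without mouse 11 (0.0571), and leaving out mouse 7 or mouse 11 left 1 slow partner called. These 3 called genes were also read in mouse 1, which had 1 Myl2 read, at 24.8 (Mybpc1), 40.1 (Cox6a2) and 10.1 RPM (Ckmt2). Slow troponin T, Tnnt1, was not called (log2 fold change -3.48, adjusted p = 0.288 from limma), nor were Csrp3 and Ankrd2. Tnni1 and Tnnc1 did not pass the filter. Mb, myoglobin (-2.69), and Atp2a2, the calcium pump of slow fibers and many other cells (0.05), were not called. The sign of Atp2a2 turned with TMM, edgeR or DESeq2 scaling.

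Slow partners also differed between mice 2 and 1. Levels in mouse 2 over mouse 1 had a median of 10.8 over 11 tested slow partners and 2.52 over 13 fast partners, beside 1.85 for Myh4, 3.13 for Mylpf, 10.8 for Myh1 and 16 for Myh2. Casq2, a further slow partner, had no read in mouse 1 and gave no ratio. Mybpc1 was read at 24.8 RPM in mouse 1, so not every gene of that list was near 0 there.

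Of 22 tested sarcomere and muscle identity genes, 17 were called lower and 0 higher, beside 0.367% and 0.0382% of all genes tested. Their median was -4.54, and the called genes include Actn3 and Mybpc1, already counted among the partners. Pygm, muscle glycogen phosphorylase, had a log2 fold change of -4.55, Ttn, titin, of -6.10, Neb of -5.34 and Actn3 of -6.31. Without mouse 1, 10 of this list were called, and without mouse 7 or mouse 11, 9 were. With a pseudocount of 10, 6 were called. Among other striated myosin genes, 2 were tested and Mylk2, the kinase of the fast regulatory light chain, was called (log2 fold change -3.52), whereas Myl6b was not (-1.45). Myh13, the extraocular heavy chain, and Myh7b did not pass the filter.

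Of 5 tested developmental and regeneration genes, 0 were called by limma or edgeR and 2 by DESeq2, and 3 were lower at an unadjusted p under 0.05 with limma. Over all genes tested, limma called 0.367% lower and 0.0382% higher. DESeq2 called 187 lower and 79 higher of 13080 genes. The DESeq2 calls were Myf6, a muscle regulatory factor, and Cdh15, the cadherin of satellite cells and young muscle. Their log2 fold changes were -2.20 and -1.82 with limma, and Ncam1 (-0.28) and the growth factor Igf2 (0.74) were not called by any of the 3 tools. The sign of Ncam1 turned without mouse 2 (0.07). The 16 genes with a row summed to 8.45 to 17.2 RPM in HMMR Tg/Tg mice and to 12.5, 55.5 and 13.7 RPM in control mice 1, 2 and 3, so mouse 2 was again the highest.

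Nonmuscle and smooth muscle myosins, which other cells of the gland use, were measured as a comparison. Of 7 tested, 0 were called by limma, edgeR or DESeq2, and 0 had an unadjusted p below 0.05, and their median log2 fold change was 0.28. Over all genes tested, limma called 0.367% lower and 0.0382% higher, so 0 of 7 called does not set these genes apart. Myh9, the main nonmuscle heavy chain, was read at 356 ± 34.9 RPM (SD, n = 4) in HMMR Tg/Tg mice and 360 ± 82.2 RPM (SD, n = 3) in control mice, with a log2 fold change near 0 whose sign turned with TMM, quantile, edgeR or DESeq2 scaling. Myh10, Myl12a and Mylk had log2 fold changes of 0.41, 0.21 and 0.28.

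**Figure D4:**
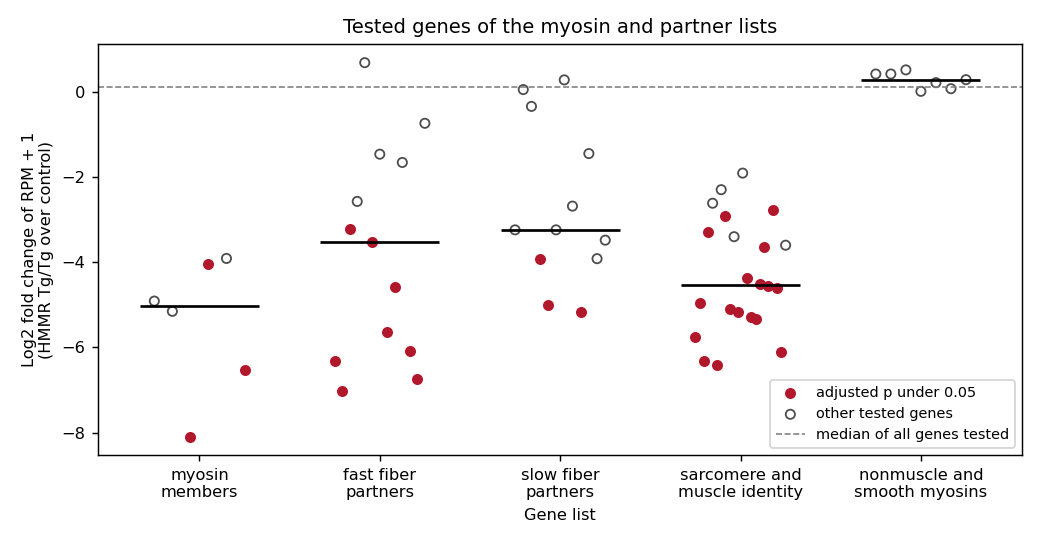
Log2 fold change of RPM + 1, HMMR Tg/Tg over control, for each tested gene of the myosin chains and 4 partner lists, with filled points for genes at an adjusted p under 0.05 from limma, a bar at each median and a dashed line at the median of all genes tested. Medians are -5.03 for the chains, -3.52 and -3.24 for fast and slow partners, -4.54 for sarcomere genes and 0.28 for nonmuscle and smooth muscle myosins.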

How the data were processed

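RNA from paraffin sections of 7 mice was amplified with the Ion AmpliSeq mouse panel and sequenced on an Ion Torrent S5. For every amplicon in each mouse the authors deposited a value labelled TPM, scaled to panel reads and so taken as RPM, since the columns add up to 1000000 and 100% of values under 1000 reads fell within 0.05 reads of a whole read count. RPM carries no length correction. The submitters' processing notes name mm10 and Transcriptome Analysis Console, and name neither aligner nor plug-in version (not given in the sources used). Groups came from the sample titles. The 27 symbols turned into dates were restored from amplicon names.

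All 10 members were named, with up to 4 genes of highest mean RPM per partner list and the 5 genes most like a chain. Further list genes, such as Ckmt2, Csrp3, Ankrd2, Tnnc1 and Casq2, were named outside this rule. Members and lists were chosen with earlier results of these data known. log2(RPM + 1) was fitted with limma 3.58.1 (eBayes with a trend, R 4.3.3) on 13080 genes (minimum 1 RPM in 3 or more mice), with Benjamini-Hochberg adjustment. edgeR 4.0.16 and DESeq2 1.42.0 on recovered reads, pseudocounts of 0.1 and 10, other filters and scalings, and leaving out each mouse were alternatives. The pipeline was tested on simulated data. Shares had exact Clopper-Pearson 95% intervals. Libraries of a group differed well beyond sampling noise (27.6 to 140.2 for chi-square over its degrees of freedom). RefSeq starts (GRCm38.p6) and NCBIM37 coding sequences, aligned end to end, gave the sequences.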

Additional observations from a re-analysis of the deposited data

Results flagged for a closer look

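Within the 4 HMMR Tg/Tg mice, 15 sets of values were compared for a mouse far from the others, and chance alone flags about 1 in 20 such groups. Myh4 stood out in mouse 8, at 23.2 RPM, where the nearest other mouse had 1.15 RPM. Myh1 stood out in mouse 9, at 7.03 RPM against 1.18 RPM in mouse 8, and so did its share of the adult fast heavy chain reads, 76.4% against 4.64%. Myh3 at 0.167 RPM in mouse 11 was a single read, with none in the other HMMR Tg/Tg mice. In mouse 11 the Mylpf share of regulatory light chain reads was 90%, against 82.9% in the nearest mouse, and the Myl2 share was the complement, 10% against 17.1%, on 20 reads. The control group, with 3 mice, was too small for this comparison.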

How the results depend on the processing

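Over 16 alternatives, the log2 fold changes of Myh4, Mylpf, Myl1, Myh1, Myh2 and Myl2 were negative in every fit. Myh4 and Mylpf were called in 16, Myl1 in 9, Myh2 in 5 and Myh1 and Myl2 in 2 each. Genes called lower numbered 16 with a pseudocount of 10, 28 with the filter at 4 mice, 187 with DESeq2, and 23 to 44 when 1 mouse was left out. Genes called higher numbered 3 with a pseudocount of 10, with the filter at 4 mice and with TMM factors, 79 with DESeq2, and 2 to 22 when 1 mouse was left out. Myosin chains called lower numbered 5 with DESeq2 and 2 to 5 when 1 mouse was left out. Slow partners called lower numbered 0 with a pseudocount of 10 and 1 to 3 when 1 mouse was left out. The Mylpf share in HMMR Tg/Tg mice averaged 84.0%, and 91.1% when only chains with at least 10 reads were counted. That setting dropped Myl2 in mice 7 and 11 (8 and 2 reads) and left Mylpf alone there, so this rise was fixed by the setting.

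The small difference of Atp2a2 turned to -0.050 with TMM factors, -0.081 with edgeR and -0.10 with DESeq2, and ran from -0.11 to 0.26 when 1 mouse was left out. That of Myh9 turned to -0.091 with TMM factors, -0.031 with quantile normalization, -0.13 with edgeR and -0.15 with DESeq2, and ran from -0.17 to 0.17. That of Ncam1 ran from -0.53 to 0.066 when 1 mouse was left out. The cause of these changes was not tested. Scaling moved the median of all genes by at most 0.12, from 0.11 to -0.01 with DESeq2. No paired analysis was possible because the groups share no mouse numbers. With 143 to 660 reads of these chains per HMMR Tg/Tg mouse, depth limits every isoform share there.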
